A study of Mus musculus with 2 samples.

Results

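The SLAM family receptors and SAP were followed in spleen CD8+CD122+ and CD8+CD122- cells, obtained by sorting from C57BL/6 mice. The 8 genes, of 27762 gene names on the arrays, were the receptors Slamf1, Slamf6, Slamf7, Ly9, Cd48, Cd84 and Cd244 (Cd244a in current nomenclature) and the adaptor gene Sh2d1a, which encodes SAP. Their probes were taken by name: a probe that is no control and carries 1 of these symbols in the scanner file of either array. This gave 16 probes, of which 5 carried the symbol on both arrays, 1 on array 1 only and 10 on array 2 only.

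SLAM family receptors are immunoglobulin-like surface proteins of blood cells that mostly bind their own kind on a neighbouring cell. The exceptions are CD244 and CD48, which bind each other, and CD48 is held in the membrane by a lipid anchor with no cytoplasmic tail. The tails of the other receptors carry tyrosine motifs that recruit SAP or its relatives; SAP brings in the kinase Fyn, and without it the motifs can recruit phosphatases. In T cells and natural killer (NK) cells this choice helps set whether contact activates or inhibits, and loss of SAP causes X-linked lymphoproliferative disease in humans.

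CD122 is the receptor chain that interleukin 2 and interleukin 15 share, and the series title calls CD8+CD122+ cells regulatory. Each of 2 two-colour Agilent arrays received amplified mRNA of both populations. CD8+CD122+ was labelled with Cy5 and CD8+CD122- with Cy3 on array 1, and the dyes were exchanged on array 2, which the labels call a second trial. The sources used here do not give age, sex, how many mice were pooled or whether the trials used different mice, so the spread between arrays may be technical in part. Trial and dye orientation cannot be told apart. All ratios are log2 of CD8+CD122+ over CD8+CD122-, so a value of 1 is 2-fold higher in CD8+CD122+ cells, and signals are mean spot intensities in scanner units before background correction.

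The sorted marker checked the labels. Il2rb, which encodes CD122, had signals of 9033 in CD8+CD122+ and 1012 in CD8+CD122- on array 1, and of 4432 and 1405 on array 2, with log2 ratios of 2.60 and 2.34. The arrays differed in other ways. A probe of Xist, the noncoding RNA of X inactivation, gave 92.9 and 104 in the same order on array 1 and 1439.8 and 1191 on array 2. The other tested Xist probe gave 289 and 236 on array 1 against 526 and 762 on array 2. Over the 30794 probes tested, the log2 ratios of the arrays correlated with Pearson's r of 0.38 and Spearman's rho of 0.11, given as a description across probes that share the same RNA. At least 2-fold lower values numbered 42 on array 1, 219 on array 2 and 25 on both, and at least 2-fold higher values numbered 109, 336 and 78.

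No SLAM family or SAP probe passed either threshold. A probe was tested if it lay well above background in the same population on both arrays, which held for 13 of the 16 probes. By limma with Benjamini-Hochberg adjustment over all 30794 probes, 0 of the 13 were called at an adjusted p under 0.05, against a background of 0%, and the lowest adjusted p among them was 0.671. At an unadjusted limma p under 0.05 there were 3 of 13, beside 6.12% of all tested probes: 1 Slamf6 probe and both Slamf7 probes. By the rule of size, which asks for a change of at least 2-fold with one sign on array 1 and array 2 and carries no p-value, 0 were higher (0.253% of all tested probes) and 0 were lower (0.0812%). With 2 arrays a two-sided exact permutation test cannot go below p = 0.5.

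The signs of the members were mixed. Of the 13 tested probes, 4 were positive on both arrays, beside 27.8% of all probes, 3 were negative on both, beside 25.6%, and 6 were positive on 1 array and negative on the other. Their median log2 ratio was -0.010, against 0.0033 over all tested probes. On array 2 alone 3 of the 13 were at least 2-fold lower, both Cd48 probes and 1 Slamf6 probe, beside 0.711% of all tested probes. On array 1 alone 0 of the 13 were at least 2-fold in either direction, beside 151 of all 30794. The Cd48 probes read 1 gene in the same RNA, so they are not separate counts, and the share was not tested. Array 2 also holds more 2-fold values than array 1 in both directions over all probes.

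**Figure D1:**
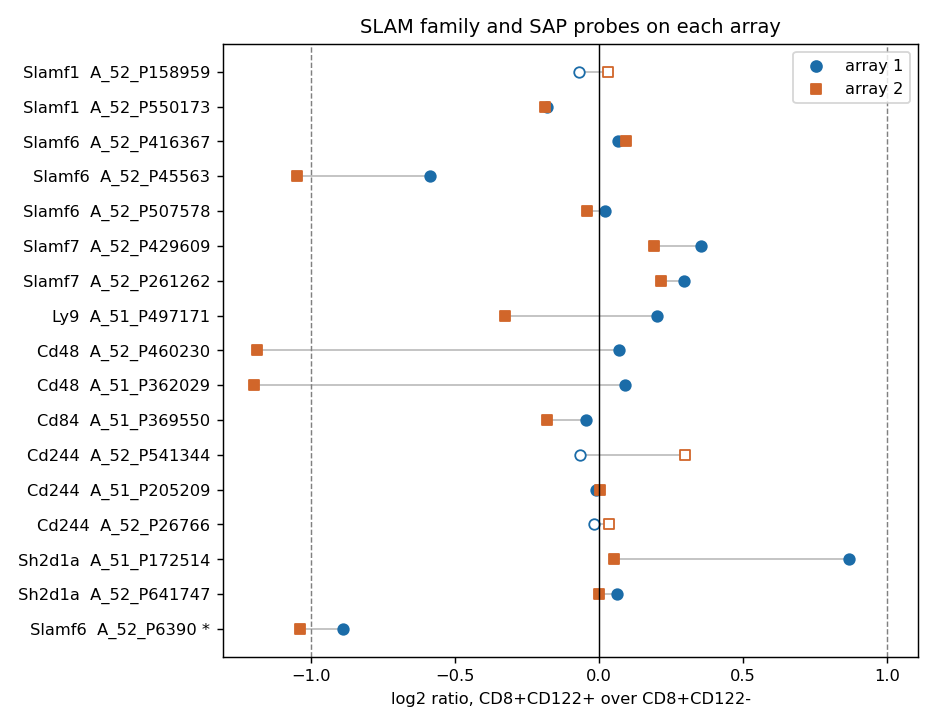
Log2 ratio of CD8+CD122+ over CD8+CD122- (horizontal axis) for each SLAM family and SAP probe (rows) on array 1 (blue circles) and array 2 (orange squares); open symbols are the 3 probes not tested, dashed lines mark 2-fold, and the asterisk marks a Slamf6 probe outside the naming rule. Both Cd48 probes lie near 0 on array 1 and below -1 on array 2, while the Slamf6 probes A_52_P45563 and A_52_P6390 lie below 0 on both arrays.

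Slamf6 had the member probe with the mean farthest from 0 in the main analysis. With processed signals or the deposited table the dim Slamf7 probe A_52_P429609 lay farther (1.19 against -1.003). With only the brightest probe per gene Cd48 A_51_P362029 was farthest, at -0.55. The Slamf6 probes differed from each other. Slamf6, or Ly108, is a self-binding receptor of T, B and NK cells and is used as a surface marker of stem-like CD8 T cells. Its probe A_52_P45563, placed by the file at chromosome 1, 171865526 to 171866854, gave signals of 245 in CD8+CD122+ and 303 in CD8+CD122- on array 1 and of 205 and 532 on array 2. It was lower in CD8+CD122+ on both arrays, with log2 ratios of -0.59 and -1.05, a mean of -0.82 ± 0.33 (SD, n = 2 arrays) and a limma adjusted p of 0.671. Array 1 thus fell short of 2-fold and array 2 passed it. The probe A_52_P507578, which lies 5474 bases further on at 171872329 to 171872388, gave signals of 466 and 371 on array 1, then 416 and 608 on array 2. Its log2 ratios of 0.02 and -0.04 had a mean of -0.01 ± 0.05 (limma adjusted p = 0.984). The first Slamf6 probe minus the second was -0.61 on array 1 and -1.01 on array 2, the same sign on both. With median centring the first gave -0.36 and -1.33 and the second 0.30 and -0.39, so each probe's arrays lay further apart and the first stayed below the second on both.

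Another probe bearing the Slamf6 name on array 2, A_52_P416367, is called Asah2 on array 1 and sits on chromosome 19 (31367572 to 31367513, as the file writes it). Asah2 encodes a ceramidase and is no SLAM gene. The probe was dim, with signals of 85.6 and 97.9 on array 1 and 114 and 106 on array 2, and its log2 ratios were 0.06 and 0.09. The gene it measures was not settled here, and it is counted as Slamf6 only because the naming rule does so.

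The probe A_52_P6390 falls outside the rule: it is called Ly108 on array 1 and AK089750 on array 2, and the RefSeq gene table names it Slamf6. It was added after its values were seen. In CD8+CD122+ and CD8+CD122- it gave signals of 136 and 216 on array 1, then 142 and 323 on array 2, the lower value in CD8+CD122+ each time. Its log2 ratios were -0.89 and -1.04, with a mean of -0.96 ± 0.11 and a limma adjusted p of 0.397. It lies 18586 bases before A_52_P45563 in the file's coordinates, at 171846880 to 171846939, and so is the nearest of the chromosome 1 probes to the 5′ end of Slamf6 on the plus strand. Thus the 2 probes nearer the 5′ end were lower in CD8+CD122+ on both arrays and the one nearest the 3′ end was near 0. Both named Ly108 on array 1, A_52_P6390 and A_52_P507578, differed by -0.91 and -0.998. With the scanner's processed signals A_52_P6390 passed 2-fold on both arrays (-1.36 and -1.58), as it did with a background offset of 16 (-1.14 and -1.30), so its call depends on how dim signals are treated. Probe sequences and exon positions were not used here, and whether the probes read the same transcripts was not tested.

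The start of Slamf6 is shown because one of its probes had the mean farthest from 0 among the members in the main analysis. Promoter sequences are from RefSeq, build GRCm38.p6, which matched 6 of the 8 genes (not Ly9 and Sh2d1a), and run from 250 bases before to 50 after the start of the gene. Each was searched on both strands for letters bound by factors of T cells, chosen with the sequences in view: RUNX (TGTGGT), T-box (GGTGTGA), ETS (CCGGAAG), AP-1 (TGANTCA), STAT (TTCNNNGAA) and TCF/LEF (TCAAAG). Matches are in capitals. The Slamf6 window, chr1:171917212-171917511 on the plus strand, holds none of these letters. Probe positions come from array 2's file, which names no build, so for no member can they be compared with the promoter positions.
Slamf6: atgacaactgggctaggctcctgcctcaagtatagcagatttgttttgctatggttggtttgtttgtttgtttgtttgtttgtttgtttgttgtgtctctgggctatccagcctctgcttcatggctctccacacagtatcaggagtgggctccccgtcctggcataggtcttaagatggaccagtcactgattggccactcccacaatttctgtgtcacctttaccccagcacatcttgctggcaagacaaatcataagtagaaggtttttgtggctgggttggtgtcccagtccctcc

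Cd48 gave the widest gap between the arrays of all member probes. Cd48 encodes the lipid-anchored ligand of CD244 and CD2 and is found on most blood cells. Probe A_51_P362029 (chromosome 1, 171633816 to 171633874) gave signals of 1129 in CD8+CD122+ and 786 in CD8+CD122- on array 1, and of 572 and 1939 on array 2. After normalisation its log2 ratios were 0.09 and -1.20. Probe A_52_P460230 (171624642 to 171624701), 9114 bases away, gave signals of 279.8 and 233 on array 1, then 174 and 474 on array 2, with log2 ratios of 0.07 and -1.19. By both probes CD8+CD122+ was near level with CD8+CD122- on array 1 after loess and more than 2-fold lower on array 2. With median centring in place of loess the probes were at 0.45 and 0.29 on array 1, then at -1.61 and -1.45 on array 2.

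Within an array the Cd48 probes differed by -0.02 and 0.01, far less than the arrays differed. Their means were -0.55 ± 0.91 and -0.56 ± 0.89 (SD, n = 2 arrays), with limma adjusted p of 0.900 and 0.894. The arrays were 1.29 and 1.26 apart, where the median distance over all tested probes was 0.12. A distance as large was found in 0.630% and 0.711% of all tested probes, and in 1.99% (28 of 1408) and 1.12% (62 of 5549) of those within 0.5 log2 units of the same brightness. The probes share the RNA of each array, so they are not replicates of the comparison. Trial, dye orientation and the Xist signals differ between the arrays too, and their part in the Cd48 values was not tested.

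The Cd48 promoter is shown because it holds the most matches of the 6 receptors. In chr1:171681742-171682041 on the plus strand, RUNX letters begin at base -76 from the start and overlap T-box letters that begin at -73. TCF/LEF letters begin at -168, and ETS letters stand on the opposite strand from base 6. Over all 32851 promoters of the table, 16.8% hold the RUNX letters, 3.98% the T-box, 8.86% the ETS and 16.003% the TCF/LEF letters. A match is a description, not a site.
Cd48: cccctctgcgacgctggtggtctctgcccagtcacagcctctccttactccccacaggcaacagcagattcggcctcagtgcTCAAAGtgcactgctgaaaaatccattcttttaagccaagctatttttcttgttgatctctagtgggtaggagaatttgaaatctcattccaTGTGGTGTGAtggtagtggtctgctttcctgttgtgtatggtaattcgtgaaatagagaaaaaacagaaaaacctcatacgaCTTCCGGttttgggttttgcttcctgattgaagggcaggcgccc

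**Figure D2:**
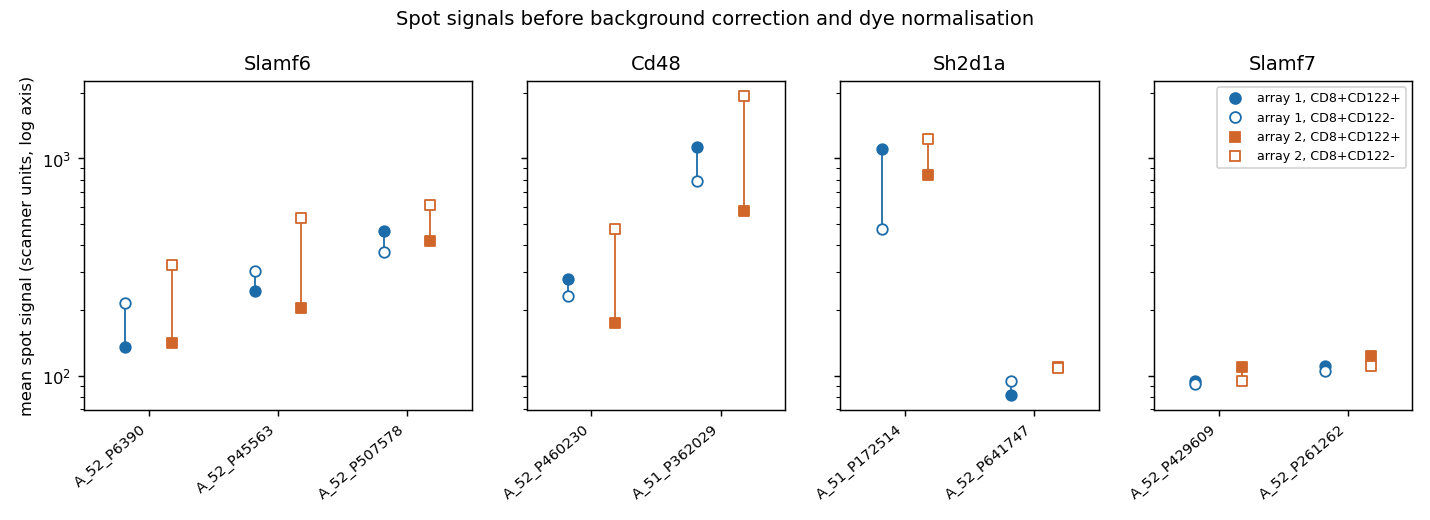
Mean spot signal in scanner units (vertical log axis), before background correction and dye normalisation, of the chromosome 1 Slamf6 probes and the Cd48, Sh2d1a and Slamf7 probes (horizontal axis); filled symbols are CD8+CD122+, open symbols CD8+CD122-, circles array 1 and squares array 2. For both Cd48 probes the filled symbol is above the open one on array 1 and below it on array 2, while the Slamf7 signals all lie between 91.5 and 124.

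Slamf7 was positive on both arrays with both of its probes, at low signals. Slamf7, or CRACC, is a self-binding receptor known from NK cells, where it signals through EAT-2, a relative of SAP. Probe A_52_P429609 (chromosome 1, 171562219 to 171562160, minus strand) gave 95.1 in CD8+CD122+ and 91.5 in CD8+CD122- on array 1, and 109 and 94.7 on array 2. Its log2 ratios were 0.36 and 0.19, with a mean of 0.27 ± 0.12 and a limma adjusted p of 0.790. This probe was not well above background in CD8+CD122- on array 1, so 0.36 is a ratio to a signal not told from background. Probe A_52_P261262 (171568067 to 171568008), 5788 bases away, gave signals of 111 and 105 on array 1, then 124 and 111 on array 2. Its log2 ratios of 0.30 and 0.21 had a mean of 0.26 ± 0.06 (limma adjusted p = 0.766). All 4 ratios were positive, 3 of them with both populations above background, and the difference did not pass the test over all probes. Its size rests on the treatment of background: the local background was 58.5 to 70 on these spots, and with the scanner's processed signals the means were 1.19 and 0.64.

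The Slamf7 promoter is shown beside it as the receptor whose probes were all positive on both arrays. In chr1:171648950-171649249 on the minus strand, printed in the direction of the gene, AP-1 letters begin at base -42. AP-1 letters occur in 7.81% of all promoters and in 3 of the 6 members' windows, the others being Cd84 (from -229) and Cd244 (from -122). STAT letters occur in 8.30% of all promoters and in 0 of the 6. RUNX letters are also in Cd84, from -45.
Slamf7: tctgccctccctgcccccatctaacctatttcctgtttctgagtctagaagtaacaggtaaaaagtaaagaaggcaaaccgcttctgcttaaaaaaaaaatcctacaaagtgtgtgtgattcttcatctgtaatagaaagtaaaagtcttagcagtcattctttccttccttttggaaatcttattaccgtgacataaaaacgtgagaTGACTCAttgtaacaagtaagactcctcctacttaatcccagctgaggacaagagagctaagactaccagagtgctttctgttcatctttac

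Ly9 had opposite signs on the arrays. Ly9 encodes CD229, a self-binding receptor of T and B cells. Its probe A_51_P497171 (chromosome 1, 171517937 to 171517879, minus strand) gave 627 in CD8+CD122+ and 431 in CD8+CD122- on array 1 and 365 and 638 on array 2. The log2 ratios were 0.20 and -0.33, with a mean of -0.06 ± 0.37 (limma adjusted p = 0.967). The arrays were 0.53 apart, a distance reached by 8.33% of all tested probes and by 19.1% (546 of 2854) of those of like brightness, in the same direction as for Cd48.

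Cd84, a self-binding receptor that supports contact between T and B cells, had 1 probe, A_51_P369550 (chromosome 1, 171815295 to 171815354). Its signals were 191 in CD8+CD122+ and 182 in CD8+CD122- on array 1 and 220.1 and 315 on array 2, with log2 ratios of -0.05 and -0.18 (mean -0.11 ± 0.10, limma adjusted p = 0.885). Both values were below 0 after normalisation, although the raw signal on array 1 was the higher in CD8+CD122+. With arrays centred on their median in place of loess, array 1 gave 0.13, so the sign there depends on the normalisation.

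Slamf1, the receptor that gave the family its name and the measles virus receptor in humans, was dim. Probe A_52_P550173 (chromosome 1, 171729052 to 171729111) gave 77.0 in CD8+CD122+ and 97.7 in CD8+CD122- on array 1 and 119 and 139 on array 2. Its log2 ratios of -0.18 and -0.19 lay 0.0078 apart, with a mean of -0.18 ± 0.0055 and a limma adjusted p of 0.823. After loess 96.1% of all tested probes were as far apart or further, and with processed signals the mean was -0.54 and the arrays lay 0.31 apart. A second Slamf1 probe, A_52_P158959, gave signals of 73.3 and 92.3 on array 1, then 100.2 and 93.4 on array 2, was not well above background on array 1 and was not tested.

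Cd244 encodes the receptor for CD48, known from NK cells and from memory and exhausted CD8 T cells. Its probe A_51_P205209 (chromosome 1, 171511940 to 171511999) gave 105 in CD8+CD122+ and 113 in CD8+CD122- on array 1 and 128 and 137 on array 2. The log2 ratios were -0.0091 and 0.0038 (mean -0.0026 ± 0.0092, limma adjusted p = 0.995). The other Cd244 probes, A_52_P541344 and A_52_P26766, were not well above background in CD8+CD122- on either array and in CD8+CD122+ were above it on array 2 only, so neither was tested. For A_52_P541344 the signals were 74.1 and 93.0 on array 1, then 108 and 89.2 on array 2. At these signals a value near 0 does not show equal expression.

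SAP was higher in CD8+CD122+ on array 1 and near level on array 2. Sh2d1a lies on the X chromosome, and its probe A_51_P172514 (37042540 to 37042599) gave 1103 in CD8+CD122+ and 472 in CD8+CD122- on array 1 and 839 and 1226 on array 2. The log2 ratios were 0.87 and 0.05, with a mean of 0.46 ± 0.58 (SD, n = 2 arrays) and a limma adjusted p of 0.885. A distance between arrays of 0.82 or more was found in 3.001% of all tested probes and in 7.94% (130 of 1637) of those of like brightness. Median centring widened it, to 1.20 on array 1 and -0.35 on array 2, so the sign on array 2 depends on the normalisation.

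The second Sh2d1a probe, A_52_P641747, lies 1196 bases further on (37043796 to 37043855) and is called AK042476 on array 2. It was dim, with 81.5 and 95.1 on array 1 and 110.1 and 109 on array 2, and its log2 ratios were 0.06 and -0.00074. In CD8+CD122- it was not well above background on array 1, so no distance to the bright probe is given there, and on array 2 the bright probe exceeded it by 0.05.

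For Cd48, Ly9 and the bright Sh2d1a probe the log2 ratio was thus higher on array 1 than on array 2, by 0.53 to 1.29, and with median centring by 1.17 (Ly9) to 2.06 (Cd48). Other members had the same direction. For Slamf6 A_52_P45563 the distance was 0.46 the same way, and 0.98 with median centring. After loess the other tested members were also higher on array 1, by less (Slamf1 A_52_P550173 by 0.0078), except Cd244 A_51_P205209 and Slamf6 A_52_P416367. With median centring Slamf1 A_52_P550173, Slamf7 A_52_P429609 and Sh2d1a A_52_P641747 were lower on array 1 than on array 2. How many of all tested probes were higher on array 1 was not counted. A dye effect of the same size and direction on both arrays cancels in the mean but not in the single values. The difference between arrays has no replicate, and dye, trial, software version and source of RNA cannot be told apart as its origin.

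**Figure D3:**
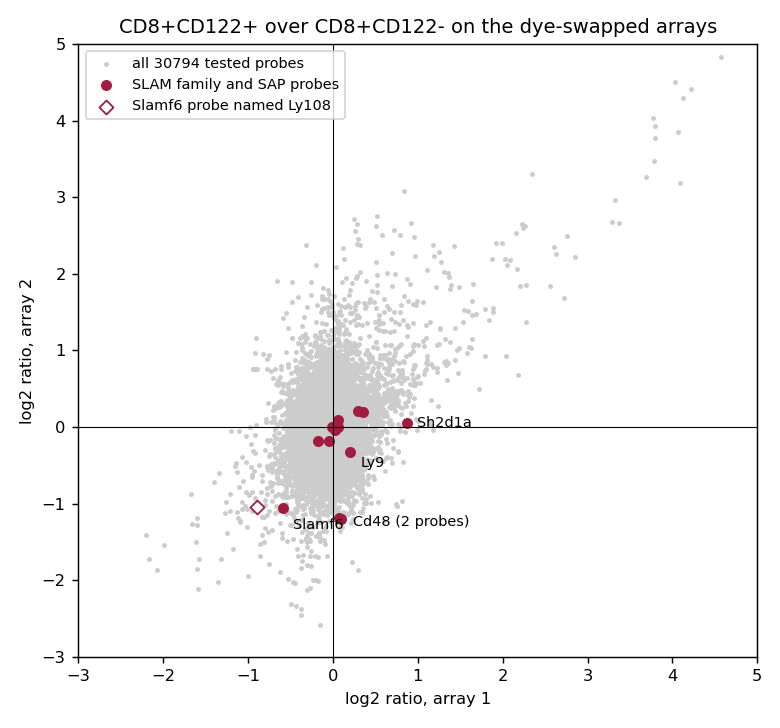
Log2 ratio on array 1 (horizontal axis) against array 2 (vertical axis) for all 30794 tested probes (grey), the 13 tested SLAM family and SAP probes (red) and the Slamf6 probe named Ly108 (open diamond). The Cd48 probes sit below the cloud's centre at -1.20 and -1.19 on array 2, Sh2d1a to its right at 0.87 on array 1, and the Slamf6 probes A_52_P45563 and A_52_P6390 in the lower left, with the other Slamf6 probes near the centre.

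Among the receptors' partners and targets, 30 of 32 listed genes had a tested probe, with 53 probes in all. By limma 0 of the 53 passed at an adjusted p under 0.05, and 7 had an unadjusted p under 0.05, beside the 6.12% of all tested probes. By the rule of size 2 were higher and 0 lower, both of the 2 being probes of Ifng, the cytokine interferon gamma. Their log2 ratios were 3.29 and 2.67 for A_51_P220976 and 3.69 and 3.26 for A_52_P68893, with limma adjusted p of 0.336 and 0.277. Without Ifng the other 51 probes ranged from -0.47 to 0.59, 25 above 0 and 26 below. At any size 14 of the 53 were higher on both arrays and 16 lower on both, beside 27.8% and 25.6% of all tested probes.

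By role, the kinase with the probe farthest from 0 was Txk, a Tec family kinase of T cells, at 0.53 and 0.41 (mean 0.47 ± 0.09, limma adjusted p = 0.624). Its other probe gave 0.54 and 0.02. Fyn, the kinase that SAP recruits, gave 0.07 and 0.71 on A_51_P177667. Among the phosphatases this was Ptpn11, which encodes SHP-2, at -0.68 and -0.02 on A_52_P641185, while its other probes had means of -0.03 and 0.05. Among the signalling proteins downstream it was Bcl10, a scaffold of the NF-kappa-B pathway, at 0.03 and 1.15 on A_51_P209527 and -0.37 and -0.07 on A_52_P566867, so its probes disagreed in sign. The adaptor Lat gave -0.59 and -0.36 and the inhibitory adaptor Dok2 0.31 and 0.63, each the same way on both arrays and short of 2-fold. Sh2d1b1, which encodes EAT-2, had 2 probes with means of 0.01 and -0.09, and Cd2, the other receptor for CD48, gave 0.05 and -0.15.

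Among the gene symbols whose probes lay nearest to the Slamf6 probe A_52_P45563 over both arrays were Txndc15 and Plekhg2. Their distances, as the straight line over the log2 ratios of the 2 arrays, were 0.028 and 0.030. Txndc15 had -0.61 and -1.03, and Plekhg2 -0.60 and -1.02. This likeness rests on 2 values per probe and is a description only.

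SLAM receptors are also made by other spleen cells, so markers of these were read on the same arrays. Fewer cells of a type and less RNA per cell cannot be told apart in such bulk RNA. Markers of CD8 T cells (Cd3d, Cd3e, Cd3g, Cd8a, Cd8b1 and Cd5) cleared the background in each population and array for 11 of 11 probes. Their mean log2 ratios had a median of -0.45 and ranged from -0.67 (Cd8b1) to 0.53 (Cd5). Probes other than that of Cd5 had means below 0, with a Cd3e probe nearest to it at -0.01. Of 12 NK cell probes 5 were above background in each population on both arrays, with mean log2 ratios between 0.05 and 0.10. These were probes of Fcer1g, Khdc1a, Klrb1c and Tyrobp. Tyrobp (0.23 and -0.14) and Klrb1c A_52_P599514 (0.14 and -0.0039) changed sign between the arrays, and the other tested ones were positive on both. The Ncr1 probe was not above background in either population on either array, so the list is mixed. Summed over all 12 NK cell probes, signals were 1548 in CD8+CD122+ and 1524 in CD8+CD122- on array 1 and 1704 and 1892 on array 2. Such sums, here and for the lists below, include local background and probes not above it. The median local background per spot was 63 in CD8+CD122+ and 62 in CD8+CD122- on array 1 and 58 and 70 on array 2. The sums are therefore no measure of how many cells of a type were present.

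B cell probes were above background in CD8+CD122+ for 8 of 9 and in CD8+CD122- for 7, and ranged from -0.48 to 0.08, with summed signals of 1412 and 1382 on array 1 and 1499.5 and 1938 on array 2. Macrophage and monocyte probes were above it for 8 and 7 of 10, from -0.03 to 0.55 (Lyz2), with summed signals of 1402 and 1307 on array 1 and 1745 and 1954 on array 2. Of 11 dendritic cell probes 6 and 5 were above background, and 1, a Zbtb46 probe with a mean of 1.37, was at least 2-fold higher. The other 3 Zbtb46 probes were not tested, and the 2 Itgax probes had means of 0.84 and 0.03. Summed over the dendritic cell list, signals were 1777 and 1428 on array 1, then 2033 and 2019.8 on array 2. The CD4 T cell list had 2 and 1 of 4 probes above background, and the erythroid list 2 and 1 of 6. The part of other cells in the values of the SLAM genes was not tested.

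The 7 receptor genes lie side by side on chromosome 1, within 366 kb by the coordinates of array 2's file, which names no build. Of 22 other probes in this stretch and 200 kb either side, 16 were tested and 0 were 2-fold on both arrays. Their means ranged from -0.41 (Arhgap30) to 0.09 (Alyref2). Inside the stretch lie 2 of them, at 0.04 and -0.01. No comparison of the members with the neighbours was tested.

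**Figure D4:**
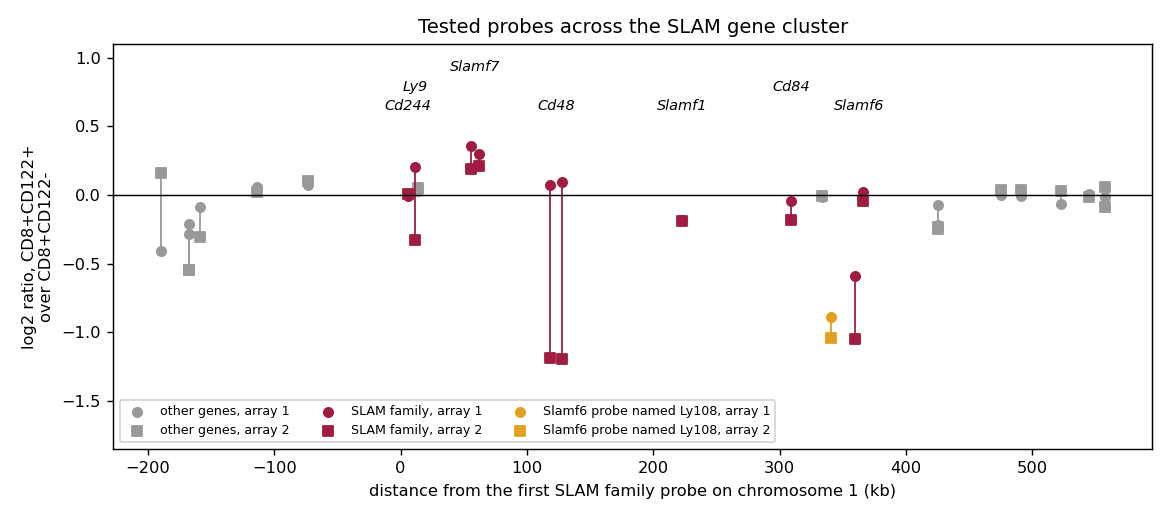
Log2 ratio (vertical axis) of each tested probe across the SLAM gene cluster by distance in kb from the first SLAM family probe on chromosome 1 (horizontal axis), with array 1 as circles and array 2 as squares joined by a line; red marks SLAM family probes, orange the Slamf6 probe named Ly108 and grey other genes. Grey probes have means between -0.41 and 0.09, while Cd48 drops below -1 on array 2 only and 2 Slamf6 probes lie below 0 on both arrays.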

How the data were processed

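Two-colour scanner files of both arrays and the deposited value table were used. Per the file headers the scanner files hold mean spot and background intensity values, processed signals, flags scored 0 or 1 and log10 ratios of Cy5 over Cy3, made with Agilent Feature Extraction (named in the submitters' processing notes), and a p-value of each log ratio, deposited with them and not used for calls. The deposited table also holds log10 ratios, medians 0, and equals the scanner ratios with the sign turned on array 1, that is CD8+CD122- over CD8+CD122+, opposite to the direction here. The sources used here do not say whether it was centred.

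Mean signals were corrected with normexp (offset 50), which shrinks the ratios of dim probes, and normalised by loess within arrays, controls at weight 0 (limma 3.58.1, R 4.3.3). Spots of a probe were averaged without outliers. Probes above background in the same population on both arrays (30794 of 41174) were fitted with lmFit and eBayes (two-sided, 1 residual degree of freedom) and adjusted by Benjamini-Hochberg. A dye term would leave 0. These steps were also run on simulated arrays to check the code, which says nothing about the spread between the real arrays.

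Well above background were 76.4% (CD8+CD122+) and 69.5% (CD8+CD122-) of non-control spots on array 1 and 80.2% and 83.4% on array 2. Of the member probes 0 were saturated. The number of arrays limits the precision. Names came from RefSeq GRCm38.p6 by accession (21848 probes), symbol (5698) or synonym (4470), and 9158 kept the file's name. All members were named, with, of the signalling list, genes past the rule of size and the farthest from 0 in each role; Fyn, Lat and Dok2 were added after their values were seen. Members and lists were chosen with earlier results of these data known. One gene of those most like Slamf6 is not reported here.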

Additional observations from a re-analysis of the deposited data

How the results depend on the processing

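Under median centring, an offset of 16, the processed signals, the deposited table, no filter, a stricter filter, limma-trend, robust eBayes and the brightest probe per gene, 0 SLAM family or SAP probes taken by the naming rule were called by limma and 0 passed the rule of size. With 1 array alone, where no test can be had, the number at least 2-fold ranged from 0 to 3, the 3 being on array 2. Of the values of single member probes under these settings 127 kept their direction and 9 turned it. The changed filters, limma-trend, robust eBayes and the brightest probe per gene reuse the log2 ratios of the main analysis. No value could turn under these, and the deposited table repeats the processed signals. The 127 is therefore no measure of how robust the directions are. With the offset of 16 Slamf6 probe A_52_P507578 turned to 0.0014, and with the processed signals and the deposited table Cd244 probe A_51_P205209 turned to 0.013. With 1 array left out, values ranged from -1.20 to 0.091 and -1.19 to 0.069 for the Cd48 probes, -0.33 to 0.20 for Ly9, -0.042 to 0.022 for Slamf6 A_52_P507578, -0.0091 to 0.0038 for Cd244 A_51_P205209 and -0.00074 to 0.063 for Sh2d1a A_52_P641747. The cause of these turns was not tested.

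Over all probes the rule of size passed 78 higher and 25 lower, against 80 and 16 with median centring, 120 and 42 with the offset of 16 and 199 and 85 with processed signals or the deposited table. limma called 6 of all probes with the offset of 16 and 0 in the main analysis. Dim probes moved most: the mean of Slamf1 A_52_P550173 ranged from -0.54 to -0.18 and that of Slamf7 A_52_P429609 from 0.27 to 1.19 over the settings; with the brightest probe per gene Slamf6 is represented by A_52_P507578. The Slamf6 probe outside the naming rule, followed after seeing the data, ranged from -1.47 to -0.96 and was 2-fold lower on both arrays with the offset of 16, the processed signals and the deposited table. No pairing was added, because each log2 ratio already pairs both populations on its array. The replicate numbers mark the arrays of 1 group.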
